A study of Mus musculus with 2 samples.

Results

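The regions described here are RNA clusters from a UPF1 immunoprecipitate, at the 5′ ends of long genes in mouse neural progenitor cells. Most of them were not called enriched over input. A cluster is a stretch of RNA on which reads of the UPF1 immunoprecipitate piled up. It was included when it lay on the strand of a single protein-coding RefSeq locus of at least 10000 nt and its midpoint was within 1000 nt of the outer 5′ end of that locus. This gave 2202 of the 123349 clusters in the deposited list (1.79%), in 1508 genes. The choice used strand and position and not the measured enrichment. Enhanced crosslinking and immunoprecipitation (eCLIP) recovers the RNA fragments crosslinked to a protein and sets them against an input library made without the pull-down. The cells came from cortex and had the genotype Upf2fl/fl, a floxed allele of the UPF1 partner Upf2, in both libraries. The labels name both libraries MOCK and do not say what MOCK stands for. There was 1 immunoprecipitate and 1 input, so no comparison has a replicate check, no test between conditions was possible, and every interval covers counting error only.

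UPF1 is an ATP-dependent RNA helicase and the central factor of nonsense-mediated decay, which degrades mRNAs whose translation stops too early. UPF1 binds RNA with little sequence preference. Elongating ribosomes displace it from coding sequence, and it is known for accumulating on 3′ untranslated regions. The 5′ end of a long gene holds the cap, the 5′ untranslated region, often the start codon, and the beginning of what is usually a long first intron, so reads there can come from mature mRNA or from unspliced precursor.

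The annotated start regions of 8 of the genes with an enriched 5′ cluster are shown because they place those clusters relative to the first base of the RNA. Each runs 5′ to 3′ on the gene's strand. Lower case marks the 60 bases before the annotated start and capitals mark the first 30 bases of the RNA. Sequences are from RefSeq, build GRCm38.p6. The windows are chr5:93206466-93206555 (minus strand) for Ccni, chr5:140830402-140830491 (minus) for Gna12, chr15:81745038-81745127 (plus) for Zc3h7b, chr11:4849515-4849604 (minus) for Nf2, chr5:140649002-140649091 (minus) for Ttyh3, chr17:27820513-27820602 (minus) for Ilrun, chr19:46599046-46599135 (plus) for Wbp1l and chr7:24481963-24482052 (plus) for Cadm4.
Ccni: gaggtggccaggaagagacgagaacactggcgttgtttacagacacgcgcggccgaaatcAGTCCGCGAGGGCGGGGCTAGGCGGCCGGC
Gna12: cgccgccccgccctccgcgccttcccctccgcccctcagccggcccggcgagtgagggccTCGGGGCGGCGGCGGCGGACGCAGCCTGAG
Zc3h7b: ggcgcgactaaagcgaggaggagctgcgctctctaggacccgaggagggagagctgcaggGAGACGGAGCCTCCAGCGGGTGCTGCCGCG
Nf2: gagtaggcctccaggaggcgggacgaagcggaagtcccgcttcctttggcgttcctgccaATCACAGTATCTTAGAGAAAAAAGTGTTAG
Ttyh3: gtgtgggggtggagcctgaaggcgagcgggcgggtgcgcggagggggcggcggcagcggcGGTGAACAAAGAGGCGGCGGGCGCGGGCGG
Ilrun: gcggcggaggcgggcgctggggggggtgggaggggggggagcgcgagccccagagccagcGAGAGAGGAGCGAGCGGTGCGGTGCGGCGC
Wbp1l: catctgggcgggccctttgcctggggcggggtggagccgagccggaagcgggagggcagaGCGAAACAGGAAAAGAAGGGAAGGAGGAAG
Cadm4: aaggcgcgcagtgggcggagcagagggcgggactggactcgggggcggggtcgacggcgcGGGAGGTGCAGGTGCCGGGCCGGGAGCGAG
Counted from the first capital as 0, the cluster with the highest fold in Ilrun covered bases 24 to 188 of the gene. In Wbp1l it covered bases 35 to 104, in Gna12 64 to 218, in Cadm4 125 to 136, in Ttyh3 135 to 263, in Zc3h7b 170 to 226, in Nf2 340 to 613 and in Ccni 435 to 502. Only the cluster in Ilrun reaches into the 30 bases printed in capitals. The start regions are rich in G and C: 53.3% of the printed bases in Nf2 and 84.4% in Gna12, with the other 6 in between.

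The labelled cell type was checked against marker genes. All 10 progenitor and radial glia markers and all 6 astrocyte markers had a cluster in the list, as did 4 of 6 neuronal and 4 of 6 oligodendrocyte markers. None of the 5 microglial markers had one, and 1 of 5 markers of vessels, fibroblasts and blood did. A marker counted here when any cluster overlapped its locus, on either strand and also where loci overlap. Under the stricter rule of a single locus and its strand, Sox2, Hes1, Aqp4 and the vessel marker Pdgfrb had no cluster. The authors' log2 fold of immunoprecipitate over input and the −log10 p beside it are each cluster's own values. Read counts behind them were reconstructed from the steps in both columns for 1708 of the 1711 5′ clusters with a fold above 0. These clusters were shallow: the middle cluster had 7 immunoprecipitate reads (quartiles 4 and 13) against 1 in the input (quartiles 1 and 2), and 325 of them stood at 3 reads against 1.

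Clusters were denser at the start of long loci than in the stretch that follows. The first 1000 nt held 2202 clusters, the next 1000 nt held 1009, and the longer stretch from 2000 to 5000 nt held 2679. Per 100 nt of position these are 220.2, 100.9 and 89.3 clusters. The last 1000 nt of the same 7527 loci held 10812. Within the first 1000 nt, 193 clusters lay in the first 100 nt and 362 between 100 and 200 nt. Counts then fell in every further step of 100 nt, down to 124 between 900 and 1000 nt. The median midpoint lay 377 nt from the 5′ end (quartiles 198 and 629), and 63.6% of the clusters lay in the first 500 nt. Width had a median of 72 nt (quartiles 49 and 100), the same median as in the last 1000 nt. Most genes had 1 such cluster (1012 of 1508, 67.1%), and 346 had 2. Ccni, which encodes cyclin I, had the most with 7, each touching a neighbour. They covered 336 nt, fewer than the 522 nt of the 6 clusters in Vash1.

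**Figure D1:**
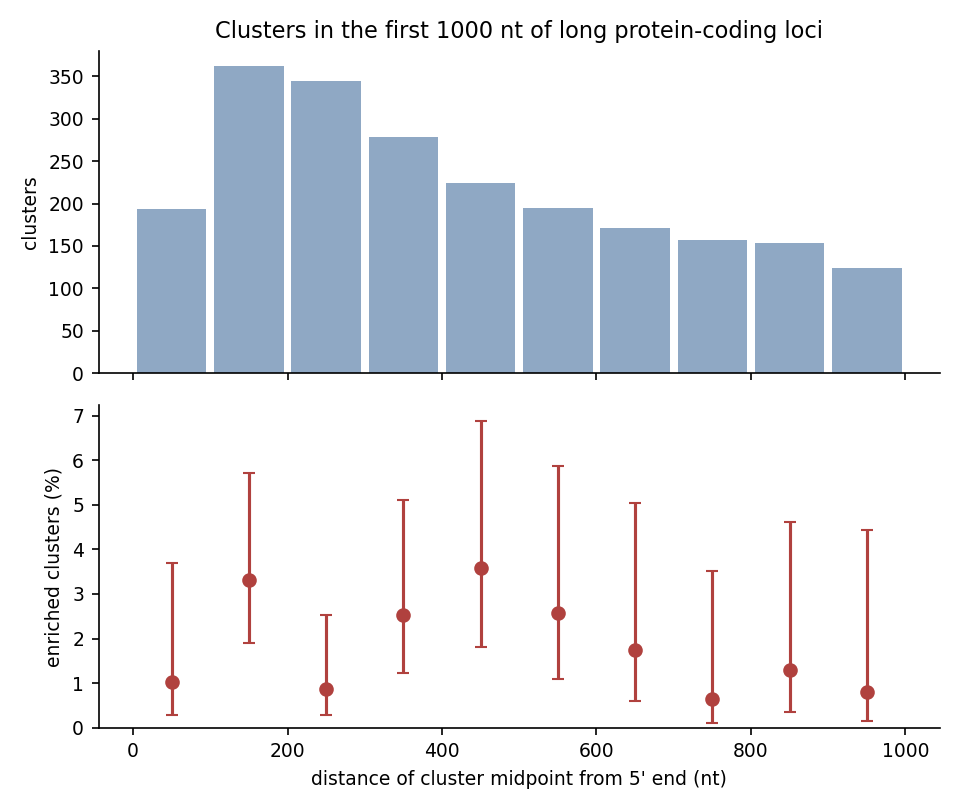
Top, number of clusters in the first 1000 nt of long protein-coding loci by distance of the midpoint from the 5′ end, in steps of 100 nt. Bottom, percent of those clusters that were enriched, with Wilson 95% intervals. Counts peak at 362 between 100 and 200 nt, while the enriched share has wide intervals that overlap in all 10 steps.

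Few of these 5′ clusters were called enriched. A cluster was called enriched when its log2 fold was at least 3 and its −log10 p at least 3. At the 5′ ends 44 of 2202 clusters passed (2.00%, Wilson 95% interval 1.49 to 2.67), in 32 of 1508 genes (2.12%). Over the whole list 11.6% of clusters passed. In the last 1000 nt of the same loci 4034 of 10812 did (37.3%, interval 36.4 to 38.2), which is 35.3 percentage points more (interval of the difference 34.2 to 36.4). The median log2 fold was 0.78 at the 5′ ends (quartiles 0.30 and 1.56) and 2.75 in the last 1000 nt. Folds at or below 0, meaning no more reads than expected from input, made up 22.3% of the 5′ clusters and 2.79% of those in the last 1000 nt. Wilson intervals treat clusters as independent, which clusters of the same gene are not, so they are likely too narrow. The calls also depend on read counts. The fewest immunoprecipitate reads of any enriched 5′ cluster were 24. A reconstructed count that high was found for 8.90% of the 5′ clusters, against 43.0% in the last 1000 nt. Counts were reconstructed only for folds above 0. Clusters at or below 0 were therefore taken as under 24 reads whatever their depth, and they are commoner at the 5′ ends.

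**Figure D2:**
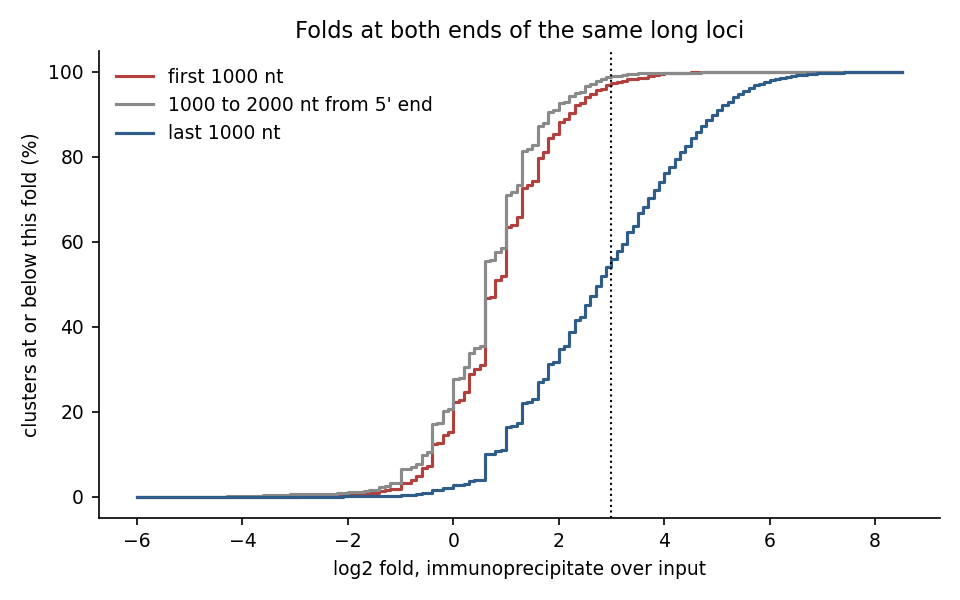
Cumulative percent of clusters at or below each log2 fold of immunoprecipitate over input, for the first 1000 nt, the next 1000 nt and the last 1000 nt of long protein-coding loci; the dotted line marks a log2 fold of 3. The curve of the last 1000 nt lies to the right, with a median of 2.75 against 0.78 and 0.56.

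Compared with neighbouring sequence, the first 1000 nt held a somewhat larger enriched share. Between 1000 and 2000 nt from the 5′ end 6 of 1009 clusters were enriched (0.595%, interval 0.273 to 1.29), a difference of -1.40 percentage points from the first 1000 nt (interval -2.15 to -0.542). Between 2000 and 5000 nt 22 of 2679 were (0.821%, interval 0.543 to 1.24). Between 5000 and 10000 nt, leaving out the last 1000 nt of each locus, the share was 4.59% (interval 4.05 to 5.19). This last window reaches the 3′ region of the shorter loci. When only clusters over 20000 nt from the 3′ end were kept, the shares were 1.88% in the first 1000 nt (34 of 1807), 0.404% in the next 1000 (3 of 743), 0.567% between 2000 and 5000 nt (10 of 1765) and 0.592% between 5000 and 10000 nt (16 of 2701). Loci under 10000 nt had 24 of 612 clusters enriched in their first 1000 nt (3.92%, interval 2.65 to 5.77). For those lying over 5000 nt from the 3′ end the share was 2 of 224 (0.893%, interval 0.245 to 3.20), an interval that overlaps that of the long loci.

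Reconstructed read counts differed along the locus together with these shares. At an input of 1 read, 24 immunoprecipitate reads were the fewest that passed both thresholds here. Of the 5′ clusters, 196 (8.90%) reached 24 reconstructed reads, against 41 (4.06%) in the next 1000 nt and 43.0% in the last 1000 nt. Clusters with a fold at or below 0 have no reconstructed count and were taken as under 24 reads. They made up 22.3% at the 5′ ends and 27.8% in the next 1000 nt. Between 2000 and 5000 nt they made up 31.6%, and in the last 1000 nt 2.79%. Among clusters with a fold above 0 and at least 24 reads, 22.4% were enriched at the 5′ ends (44 of 196, interval 17.2 to 28.8). The corresponding shares were 14.6% between 1000 and 2000 nt (interval 6.88 to 28.4), 23.9% between 2000 and 5000 nt (interval 16.4 to 33.6) and 86.0% in the last 1000 nt (interval 84.9 to 86.9). These shares are not matched for depth, since the immunoprecipitate reads used for the minimum also enter the fold. Every enriched 5′ cluster passes the minimum. Deep clusters at or below input are left out, which raises the shares by an unknown amount in each window. The shares describe the deep clusters with a fold above 0 and compare no windows. The median input behind such deep clusters was 4 reads at the 5′ ends and 2 in the last 1000 nt.

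Cyclin I stood first among the enriched genes. Ccni (chromosome 5, 93181933 to 93206495, GRCm38.p6, minus strand) had 7 clusters in its first 1000 nt, 6 of them enriched. The 7 covered bases 139 to 502 of the locus, each touching a neighbour, with a single gap between bases 326 and 355. Going from the 5′ end, their log2 folds were 2.96, 3.62, 3.27, 3.67, 4.29, 4.63 and 5.36. The fold was thus lowest in the cluster nearest the start and highest in the cluster farthest from it. The reads behind the last of these, at chr5:93205993-93206060, were 250 against 3, which gives an interval of 3.79 to 7.64. The neighbouring cluster held 353 against 7 (interval 3.57 to 5.96) and the first of the 7 held 222 against 14 (interval 2.19 to 3.86). Elsewhere in Ccni the highest fold was 3.62, and only 1 of the other 7 clusters was enriched.

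Several other genes had more than 1 enriched 5′ cluster, 7 genes in all. Ttyh3, a member of the tweety family of chloride channels, had 3 of 4 enriched. Its folds were 3.15 from 199 reads against 11, 3.89 from 211 against 7, 3.37 from 42 against 2 and, not enriched, 2.62 from 50 against 4. Vash1, a tubulin carboxypeptidase, had 2 of 6, at 3.68 and 3.73, from 26 and 27 reads against 1 each. Those 2 were the nearest to the 5′ end and the farthest from it, and the 4 clusters between them had folds of 2.25 to 2.68. Zc3h7b, a zinc finger protein, had both of its clusters enriched (4.06 from 68 reads against 2, and a little less from 65 against 2). So did the ubiquitin ligase gene Trim17 (3.68 and 3.65) and the cell adhesion gene Cadm4 (3.50 and 3.28). BC005537 had 2 of 5, at 4.04 and 3.91. Enriched clusters that touch were counted separately, and merging them left 36 stretches of the 44.

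**Figure D3:**
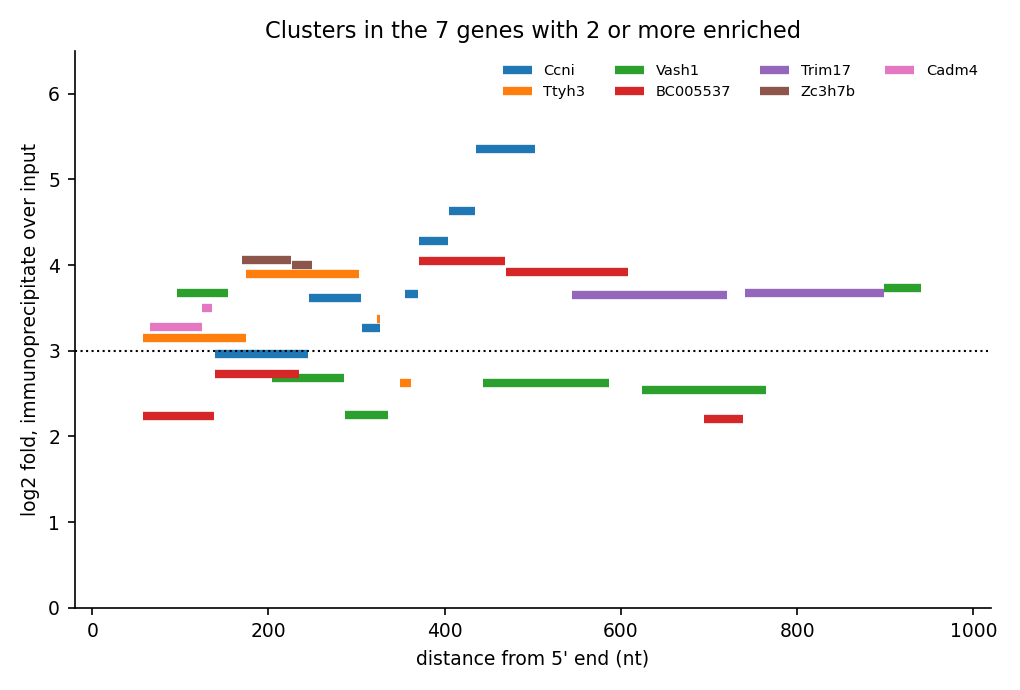
Clusters in the first 1000 nt of the 7 genes with 2 or more enriched clusters there. Each bar spans a cluster from its nearest to its farthest base, by distance from the 5′ end in nt, at the height of its log2 fold; the dotted line marks a log2 fold of 3. Ccni rises from 2.96 to 5.36 away from the start.

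The remaining 25 enriched genes had 1 enriched cluster each, mostly with few input reads. Among genes of signalling, Gna12, the alpha subunit of the heterotrimeric G protein G12, reached 4.40 from 43 reads against 1 (interval 1.85 to 9.74). Rgma, a membrane-anchored guidance molecule and BMP co-receptor, reached 4.15 (36 reads against 1). Nf2, which encodes the tumour suppressor merlin, reached 3.98 (32 against 1), and Adcyap1r1, the PACAP receptor, 3.93 (31 against 1). Grb2, the adaptor between receptor tyrosine kinases and Ras, and Map3k10, a mixed-lineage kinase upstream of JNK, both stood at 3.88 from 30 reads against 1. Mib1, the ubiquitin ligase that activates Notch ligands, reached 3.73. Apcdd1, an inhibitor of Wnt signalling, reached 3.56, and Tnk2, the non-receptor tyrosine kinase ACK1, 3.06. Each of these intervals overlaps all the others, and the genes cannot be ranked on them.

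Genes with other roles gave similar values. Ago1, an Argonaute protein of microRNA silencing, and Ccny, a cyclin that recruits a kinase to the plasma membrane, both reached 3.62 from 25 reads against 1. The same values were found in Ptdss1, a phosphatidylserine synthase, and in Wbp1l. Ilrun stood at 3.88, Kctd17 at 3.83, and 2310022B05Rik and Fam102a at 3.73. Stx16, a syntaxin of vesicle traffic, reached 3.68. Zcchc24 reached 3.56 from 96 reads against 4, and Zfand3 3.37 from 63 against 3. Mvb12b, a subunit of the ESCRT-I sorting complex, reached 3.26, and Ccdc9 3.22. Neto1, an auxiliary subunit of kainate receptors, passed with 3.02 from 66 reads against 4. Of the 44 enriched clusters 19 had an input count of 1. The median fold of the 44 was 3.68. A further 13 clusters reached a fold of 3 without the p, and 56 reached the p without the fold.

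**Figure D4:**
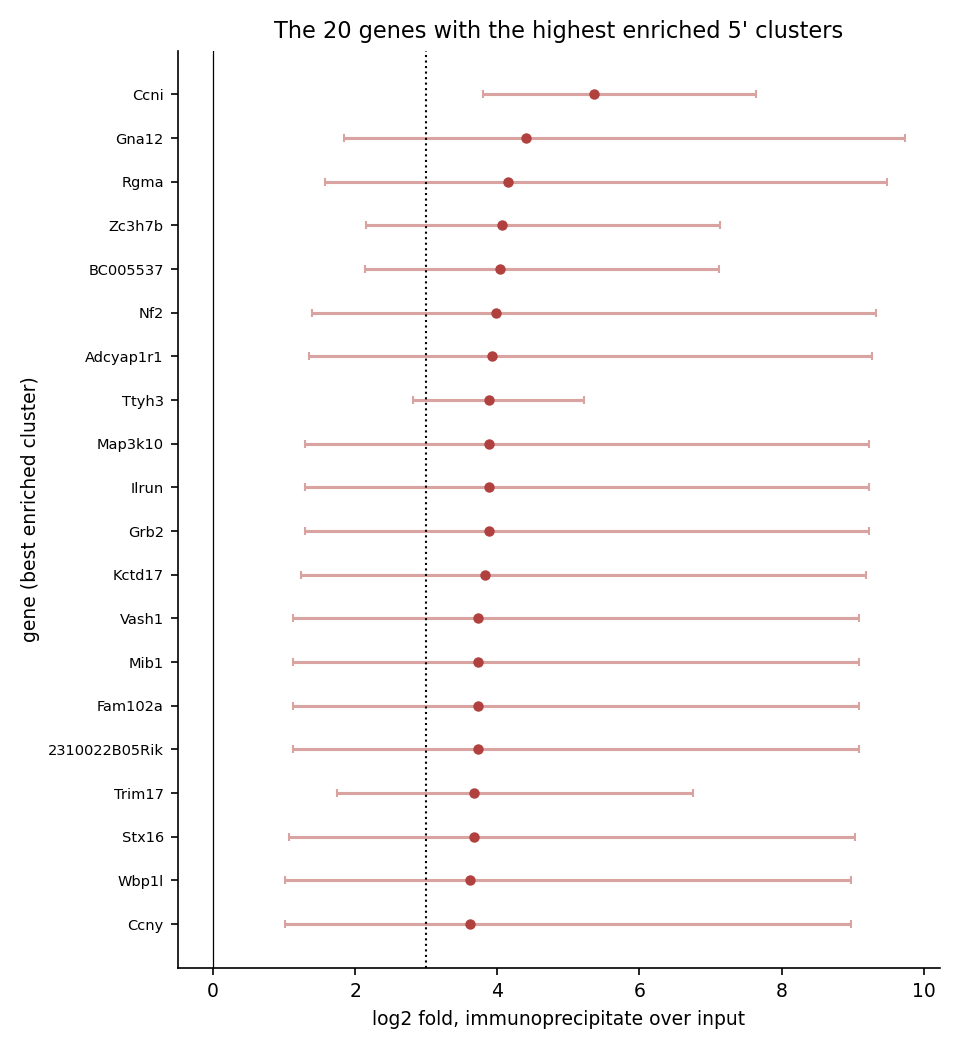
Highest enriched 5′ cluster of the 20 genes with the highest such folds, by log2 fold of immunoprecipitate over input, with exact 95% intervals from reconstructed read counts; the dotted line marks a log2 fold of 3. Folds run from 3.62 in Wbp1l and Ccny to 5.36 in Ccni, and every interval except that of Ccni reaches below 3.

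The deepest 5′ clusters with a reconstructed count were not all enriched. Clusters with a fold at or below 0 have no such count and could not enter this order. Among the rest, Mtss2 held the most reads, 359 against 20, with a log2 fold of 3.14 (interval 2.49 to 3.87). Its neighbouring cluster held 170 against 12 (fold 2.80). The locus Vac14 ends 710 nt before Mtss2 on the same strand, and whether RNA from Vac14 takes part in these clusters was not tested. Gnai2, an inhibitory G protein alpha subunit, had 189 reads against 16 and a fold of 2.54 (interval 1.80 to 3.37). Agap1, a GTPase-activating protein of Arf, had 177 against 53 and a fold of 0.72 (interval 0.27 to 1.19), so a deep cluster could also lie close to input. The other 6 of the 10 deepest clusters belonged to Ccni and Ttyh3.

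The folds at both ends were compared within genes. Of the 1508 genes, 1014 also had a cluster in the last 1000 nt, and their highest 5′ fold was compared with their highest 3′ fold. The 5′ end was higher in 123 genes (12.1%, interval 10.3 to 14.3), the 3′ end in 867, and 24 were equal. The median of the highest folds was 0.98 at the 5′ end and 3.15 at the 3′ end, and the median difference was -2.22 (quartiles -3.49 and -0.79). A highest fold also depends on how many clusters an end holds. With the median fold at each end, the 5′ end was higher in 133 genes (13.1%), and the median difference was -1.85.

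**Figure D5:**
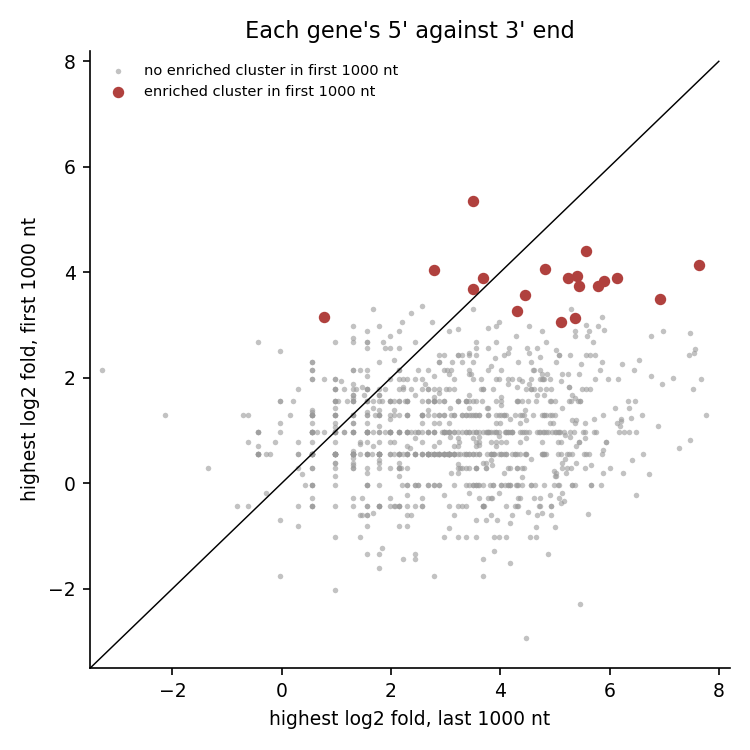
Highest log2 fold in the first 1000 nt against the highest in the last 1000 nt, for the 1014 genes with a cluster in both; the line marks equal folds. Genes with an enriched 5′ cluster are drawn in red, and 867 genes lie below the line.

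Genes with an enriched 5′ cluster were often enriched at the 3′ end as well. In 23 of these 32 genes an enriched cluster lay in the last 5000 nt (71.9%, interval 54.6 to 84.4). Of the 1476 genes with 5′ clusters of which none was enriched, 717 had one there (48.6%, interval 46.0 to 51.1). Long genes with no 5′ cluster at all had one in 1709 of 6019 cases (28.4%, interval 27.3 to 29.5). The number of clusters per gene moved with this order, with medians of 22, 14 and 6, and its part in the result was not tested. Examples with high 3′ folds were Zfand3 (8.24 in the last 5000 nt against 3.37 at the 5′ end), Zcchc24 (8.03 against 3.56), Adcyap1r1 (7.67 against 3.93), Rgma (7.64 against 4.15) and Cadm4 (6.92 against 3.50).

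In a few genes the highest fold lay at the 5′ end. In 8 of the 32 the 5′ cluster had the highest fold of the whole gene, and in 7 of these it was also the only place with an enriched cluster. Map3k10 (chromosome 7, 27656375 to 27674630) had a fold of 3.88 at the 5′ end and at most 1.56 in its 5 other clusters, none of which lay in the last 5000 nt. Neto1 had 3.02 against at most 2.44 in 38 others. Its highest 5′ fold was 3.30, in a cluster that did not pass the p. Trim17 had 3.68 against 2.78, Ccdc9 3.22 against 1.85, Ptdss1 3.62 against 0.56 and Stx16 3.68 against 3.50. Neto1 and Trim17 also had no cluster in the last 5000 nt to compare with. The Stx16 fold of 3.68 came from 26 reads against 1 (interval 1.07 to 9.03), so it cannot be ranked above 3.50. Ccni was the eighth, and its best 3′ cluster was itself enriched. Over all 1508 genes the highest fold lay at the 5′ end in 85.

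At the low end, no 5′ cluster had a log2 fold of -3 or lower, so the share may be as high as 0.136% at this count. In the full list 577 clusters did (0.468%). The lowest 5′ folds were in Spop, a substrate adaptor of cullin-3 ubiquitin ligases (-2.93), Zfyve9, the SMAD anchor SARA (-2.90), Sptan1, the non-erythroid alpha spectrin (-2.29), Cstf3, a subunit of the cleavage stimulation factor of polyadenylation (-2.25), and at -2.02 Pou2f1, Bptf, Tut4 and Rere. Next came 2 short clusters of Rcan2 at -1.76. The deposited p is 0 on its −log10 scale for every fold at or below 0, so depletion has no test. In Spop the highest fold in the last 1000 nt was 4.47.

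Many clusters did not mean high folds. Qk, the RNA-binding protein quaking, had 6 clusters over 503 nt of its first 1000 nt, with folds of -0.67 to 0.18, although 12 of its 19 clusters in the last 5000 nt were enriched, up to 4.08. Zfp704 had 5 with a highest fold of 2.44, and Mmp15, a membrane-type matrix metalloproteinase, 5 with a highest fold of 1.82 against 6.52 in its last 5000 nt. Ccni and Vash1 were the others among the 5 genes with the most.

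Functional gene lists gave no enriched 5′ cluster. Across 9 lists, 64 genes had 92 clusters at their 5′ ends, none enriched, so the true share may reach 3.26%. The 2.00% of all 5′ clusters lies within that limit. Of all 7527 long genes with any cluster, 1508 had a 5′ cluster, with a median fold of 0.78. NMD and exon junction factors had one in 6 of 14 genes, with a median of 0.98. The highest of them were Upf2 at 1.44 (11 reads against 2, interval -0.76 to 4.65) and Smg5 at 1.30 (5 against 1, interval -1.86 to 6.86). Cap-binding and initiation factors had one in 6 of 29 (median 0.56), led by Eif4g2 at 2.11 from 35 reads against 4 and Eif4g1, the cap-complex scaffold, at 1.98. Stress-response transcripts regulated by upstream open reading frames had one in 3 of 11 (median 1.46), with Mdm2 at 2.15 and Azin1 at 1.48. Factors of 3′ end processing had one in 7 of 19 (median 0.30), with Pcf11 at 1.98 and Cpsf2 at 1.30. The intervals of Upf2, Smg5, Eif4g1, Mdm2, Azin1, Pcf11 and Cpsf2 all included the input level, so these folds are not a ranking.

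The other lists ranged as widely. Splicing factors had a 5′ cluster in 6 of 39 genes with a median of -0.31, the highest being Hnrnpd at 0.50 and Hnrnpr at 0.30, so that no splicing factor here exceeded 0.50. Chromatin regulators had one in 20 of 54 genes, with a median of 0.49. The acetyltransferase gene Crebbp reached 2.68 from 52 reads against 4, and its relative Ep300 1.56. Genes of neural progenitor and glial identity had one in 7 of 22 (median 0.49). Msi2, an RNA-binding protein of stem cells, had 5 such clusters and reached 2.37 from 42 reads against 4. Nfix, a transcription factor of gliogenesis, reached 1.94 from 133 against 17. Neuronal cytoskeleton and adhesion genes had one in 8 of 27 (median 0.51), with Nrxn2, a neurexin, at 2.78 and Dclk2, a doublecortin-like kinase, at 1.98. Among cell cycle genes only Top2a had one, of 16, at -0.44. The intervals of Hnrnpd, Hnrnpr, Ep300 and Dclk2 included the input level. No test of any list was made.

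The start regions of the genes with 5′ clusters were rich in G and C. RefSeq promoter windows, from 250 bases before to 50 after an annotated start, were at hand for 1211 of the 1508 genes (1553 windows). Their median GC content was 65.3%, with 26 CpG dinucleotides. The windows of all long loci with a cluster had 62.3% and 22, and the full set of 32851 windows had 52.7% and 7. The 22 genes with an enriched 5′ cluster and a window had 61.3% and 18. The Sp1 motif core GGGCGG, searched on both strands, lay in 73.5% of the 1553 windows of genes with a 5′ cluster, in 65.1% of those of long loci with a cluster and in 35.7% of all. CGGAAG, the core of an ETS motif, lay in 28.1%, 29% and 16.9%. CCAAT lay in 33.4%, 36.1% and 37.4%, TATAAA in 5.47%, 6.22% and 13.6%, CACGTG in 11.1%, 9.87% and 7.15%, GATGGC in 15.4%, 14.7% and 14.1%, and TGACGTCA in 3.09%, 2.97% and 1.79%. In the 31 windows of genes with an enriched 5′ cluster the shares were 71.0% for GGGCGG, 32.3% for CGGAAG, 48.4% for CCAAT, 3.23% for TATAAA, 9.68% for CACGTG, 6.45% for GATGGC and 3.23% for TGACGTCA. With 31 windows, 1 window is 3.23%. A match is a description of these letters and not of a bound site.

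Other annotation near the clusters was examined. The end of a locus upstream on the same strand lay within 5000 nt of the 5′ end for 4 of the 44 enriched clusters (9.09%, interval 3.59 to 21.2) and for 267 of the 2158 others (12.4%, interval 11.0 to 13.8). The outer 5′ end of the locus was itself an annotated start in 637 of the 1211 genes with a start in the table (52.6%), and in 1178 the first such start lay within 1000 nt. Of the 1760 clusters in these genes, 1678 lay behind an annotated start, at a median distance of 278 nt from the nearest, and 82 lay before every start listed. The enriched clusters of Grb2 and Tnk2 were among those 82. The strand of the locus came from the reference table for 1760 clusters and from the clusters of the locus itself for 442, of which 12 were enriched. Of 1766 clusters in such windows whose locus has a strand in the reference table, 1760 lay on that strand (99.7%).

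At the limits of the choice the values are given as a description, with 5 clusters on each side of the distance. The clusters just inside 1000 nt were in Sptan1 (-2.29), Ncald (-0.61), Zswim6 (-0.11), Phlpp2 (0.56) and Tmem8b (-1.02). Those just outside were in Pknox2 (2.15), Smg1, the kinase of UPF1 (0.15), Ik (0.56), Tle3 (1.85) and Nkd1 (0.56). The shortest loci kept were Ppp1r18 (10004 nt, fold 0.98), Irak1 (10008 nt, folds 2.44 and -0.44) and Dgat1 (10010 nt, 0.56). The longest left out were Creld1 (9988 nt, 0.98), Phkg2 (9963 nt, 1.30) and Rhou (9952 nt, folds 0.98 and 0.56).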

How the data were processed

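A UPF1 immunoprecipitate and 1 input library of mouse neural progenitor cells were compared. Per the submitters' processing notes, the build was mm10 and the tools included STAR, cutadapt and UMI-tools. How clusters were called, scored and filtered is not given in the sources used here. No header came with the deposited file. Its log2 fold of immunoprecipitate over input and its −log10 p, both made by the authors, were read as such from their values (−log10 p from 0 to 400, and 0 wherever the fold is at or below 0) and the customary layout of such lists. The file gives no library totals.

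Clusters sharing at least 1 base with exactly 1 RefSeq locus (GRCm38.p6) were kept. Strand came from the RefSeq promoter table or, where it had none, from at least 80% of 2 or more clusters in the locus. Both sources gave the same strand in 6666 of 6689 loci. Distances are genomic and include introns, and exons were not told from introns. Counts were reconstructed taking the commonest fold as 3 reads against 1 (log2 scale -1.02). This matched 400 of 400 sampled clusters within 0.05 or 1% of the −log10 p, using an exact binomial test under 5 reads and a chi-square test otherwise, against at most 6.25% under 5 other scales. Input counts of 0 were not tried, so a count of 1 may stand for 0. In simulated data 99.6% of counts and all 400 positions were recovered. Fold intervals are exact (Clopper-Pearson) 95%, and share intervals Wilson 95%. Differences of shares have Newcombe intervals. Python 3.11.15, pandas 2.3.3, scipy 1.17.1 and statsmodels 0.14.6 were used.

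Named genes were the 20 with the highest enriched folds, the genes with 2 or more enriched 5′ clusters and the 5 genes with most clusters. Also named were the genes of the 10 deepest clusters by reconstructed count and of the 10 lowest, those at the limits, and the 2 highest of each list. The other genes with an enriched 5′ cluster, and the examples from their 3′ ends, were named after their values were seen, and 1 gene is not reported here. The members and lists were chosen with earlier results of these data known.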

Additional observations from a re-analysis of the deposited data

How the results depend on the processing

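Of 83 results recomputed under other settings, 50 stayed within their limits, 33 moved and none reversed. Several settings were chosen after seeing the data: any annotated start as the 5′ end, merged touching clusters, leaving out Ccni and Ttyh3, a minimum of 24 reads, a minimum of 10 reads for the last 1000 nt, and only loci with a strand in the reference table.

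A window of 500 nt held 1401 clusters, and the enriched share at the 3′ end was 33.5% with 500 nt and 39.5% with 2000 nt. Folds of -3 or lower numbered 5 within 2000 nt and 2 with overlapping loci included. With a fold of at least 2, the 5′ ends had 95 enriched clusters (4.31%) and the last 1000 nt 40.4%, while the bins from 1000, 2000 and 5000 nt had 1.59%, 1.38% and 5.56%. With a −log10 p of at least 5, the 5′ ends had 23 (1.04%), the last 1000 nt 28.5% and the bins from 2000 and 5000 nt 0.485% and 3.54%. Without a p, the last 1000 nt had 44.1% and the bin from 5000 nt 5.46%. Calling none with an input of 1 left 25 (1.14%) at the 5′ ends, 17.9% in the last 1000 nt, and 0.523% and 2.46% in the bins from 2000 and 5000 nt. With at least 10 reads the 5′ share was 7.24% and the 3′ share 54.1%, and with at least 24 reads 22.4% and 86.0%. These minimums are on reconstructed immunoprecipitate reads, which exist only for folds above 0 and also enter the call. The higher shares thus follow in part from the filter and do not show the effect of depth. The median 5′ fold was 0.98 with 1 value per gene and 0.68 from any annotated start. It was 1.68 with at least 10 reads, where only folds above 0 are counted. Against the last 5000 nt the highest 5′ fold was the higher one in 6.72% of genes. With the median fold at each end this share was 13.6%. An upstream end lay within 1000 nt of 2.27% of enriched clusters. GC content was 70.0% in the first 50 bases. Without Ccni and Ttyh3, 35 enriched clusters (1.60%) were left.

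Libraries could not be paired across replicates because there was 1 immunoprecipitate and 1 input, and only the immunoprecipitate has a cluster list. The comparison of both ends was made within genes. Most 5′ clusters with a reconstructed count held fewer immunoprecipitate reads than the 24 that passed both thresholds at an input of 1. These reads also enter the fold, and whether shallow depth or a low fold lay behind a failed call was not tested. A failed call does not show that enrichment was absent. No alternative was run for the gene lists.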

Other observations

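Some enriched clusters lay among those that the choice of regions left out. In the first 1000 nt of long protein-coding loci that overlap another locus, 219 clusters lay on the strand of the protein-coding gene, and 3 of them were enriched (1.37%, Wilson 95% interval 0.467 to 3.95). Of the 5′ clusters in a single locus 2.00% were enriched, a share inside that interval. The 3 enriched clusters were in Sp3, a zinc finger transcription factor (log2 fold 3.47, 45 reads against 2), and in Rgma (3.09 and 3.02). The 5′ cluster of Rgma in a single locus is described above. With the 2 enriched clusters given here, Rgma had 3 enriched clusters in its first 1000 nt. Another Rgma cluster where loci overlap reached 2.56 from 24 reads against 2 and was not enriched. Before the 5′ ends whose strand the reference table gives, 17 clusters lay within 1000 nt outside every locus, and none was enriched, which allows up to 17.6%.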
